A study of Homo sapiens with 8 samples.

Results

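The 10 genes described here encode enzymes of serine synthesis and of folate-bound one-carbon metabolism: PHGDH, PSAT1, PSPH, SHMT1, SHMT2, MTHFD1, MTHFD1L, MTHFD2, MTHFD2L and ALDH1L2. They were chosen by symbol, with earlier results of these data known, and each has a row among the 18892 gene rows of the RNA table. A filter of at least 1 RPM (reads scaled by a library total that the authors set) in at least 2 of the 4 libraries kept 11833 genes, and 9 of the 10 enzymes passed it. ALDH1L2 did not. The mitochondrial folate enzymes SHMT2, MTHFD2, MTHFD1L and ALDH1L2 were compared with the cytosolic enzymes SHMT1 and MTHFD1.

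RNA, given as polyA RNA in the labels, was sequenced from C4-2, a human cell line of prostate cancer that was derived from the LNCaP line. The shCDCA8 group (2 libraries) carried a short hairpin RNA against CDCA8. Its product, borealin, belongs to the chromosomal passenger complex, which acts in chromosome segregation. The shCTRL group (2 libraries) carried a control hairpin. Both groups grew in the same medium with fetal bovine serum, and the labels list no treatment. The labels describe Zymo extraction with Illumina library preparation and also Qiagen extraction with sequencing by BGI, without saying which was used for which library. The titles name a single CDCA8 hairpin and no rescue, so effects of the knockdown and of that hairpin cannot be told apart. The labels do not say that replicates came from separate cultures, and the p-values therefore measure only the spread between these libraries, which may be technical. RPM values are relative, so that in these bulk samples fewer cells expressing a gene and less RNA per cell cannot be told apart.

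Cells make serine from the glycolytic intermediate 3-phosphoglycerate in consecutive steps catalysed by PHGDH, PSAT1 and PSPH. Serine hydroxymethyltransferases then move a carbon unit of serine onto tetrahydrofolate, leaving glycine, and dehydrogenases oxidise that unit to formate for use in purine, thymidylate and methionine synthesis. Mitochondria and cytosol hold parallel sets of these folate enzymes. In proliferating cells the carbon usually runs through mitochondria and returns to the cytosol as formate. ATF4, a transcription factor of the amino acid and stress response, is a known activator of the serine synthesis genes and of SHMT2 and MTHFD2.

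The hairpin target was lower in the cells that carried the hairpin. CDCA8 measured 3.98 and 3.94 RPM in shCDCA8 cells, against 14.2 and 16.5 RPM in shCTRL cells, a log2 fold change of -1.72 ± 0.13 (SE, limma adjusted p = 7.86e-07). Between 17406425 and 21920570 reads fell in gene rows per library, which was 33.3% and 34.2% of the authors' divisor in shCDCA8 libraries, against 41.1% and 43.6% in shCTRL libraries. Beside this difference the whole distribution was shifted: the median log2 fold change of all 11833 kept genes was -0.27. Values are therefore also given after median-ratio scaling, in which the typical gene sets the scale of a library (each gene is compared with its geometric mean over the 4 libraries, and the median of these ratios is the divisor), and that median becomes 0.01. Of the listed markers of other cell types 3 of 5 basal, 6 of 6 fibroblast and 5 of 7 leukocyte and endothelial genes had a row, while KRT5, TP63, PTPRC and CDH5 had none and were not analysed here. NGFR, DCN, LUM, CD3E, CD79A and PECAM1 stayed under 0.1 RPM in every library, but others were detected, among them KRT14, COL1A1, PDGFRB, VWF and CD68. KRT14 measured 2.03 and 2.35 RPM in shCDCA8 cells, against 2.53 and 2.53 RPM in shCTRL cells. In shCDCA8 libraries basal markers summed to 2.85 and 3.38 RPM, against 6.68 and 7.11 RPM in shCTRL libraries. Fibroblast markers summed to 4.59 and 5.30 RPM in shCDCA8 libraries, against 11.9 and 14.5 RPM in shCTRL libraries. Leukocyte and endothelial markers summed to 10.2 and 11.8 RPM in shCDCA8 libraries, against 11.2 and 14.3 RPM in shCTRL libraries. The basal and fibroblast sums were lower in both shCDCA8 libraries. By the mean of all 4 libraries ITGB4, COL1A1 and CD68 were highest in their lists, and in the shCDCA8 libraries KRT14 was the highest basal marker. All 9 luminal prostate markers were kept, of which 6 fell, 2 rose and 1 did not pass. Among all kept genes 47.6% fell and 18.8% rose. After median-ratio scaling 5 of the 9 fell and 3 rose, against 33.6% and 33.2% of kept genes. KLK3 was highest (364 and 438 RPM in shCDCA8 cells, against 1454 and 1477 RPM in shCTRL cells). KRT8 and KRT18, keratins of luminal epithelium, were the 2 that rose as deposited, with log2 fold changes of 0.74 and 0.49. They were named after their values were seen. The summed level of the 9 was 1932 and 2035 RPM in shCDCA8 cells, against 3757 and 3915 RPM in shCTRL cells. The part of these differences in the enzyme results was not tested.

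The enzymes of serine synthesis and 3 of the mitochondrial folate enzymes fell together in shCDCA8 cells, each to less than 25% of its shCTRL level, while the cytosolic folate enzymes did not pass the test. Of the 9 enzymes tested, 7 fell, 0 rose and 2 did not pass (limma, adjusted p under 0.05 over all kept genes, termed a call). For comparison, 47.6% of all kept genes fell and 18.8% rose, so a call by itself is common in these data. The size of the fall was less common. The enzymes were chosen with earlier results of these data known, so these shares are no independent evidence of an excess. At least 4-fold falls on the log2(RPM + 1) scale were found for 6 of the 9 enzymes, against 1.46% of kept genes. After median-ratio scaling 6 of the 9 enzymes fell, against 33.6% of kept genes, while 0 rose, against 33.2%. At least 4-fold falls then were found for 4 of the 9, against 0.786% of kept genes, and edgeR on the recovered whole reads also gave 4 of the 9, against 2.9%. In 8 of the 9 enzymes both shCDCA8 libraries were lower than both shCTRL libraries, as in 56.8% of kept genes. The median log2 fold change of the 9 enzymes was -2.09, or -1.78 after median-ratio scaling. Together the 10 enzymes took 0.0894% and 0.0900% of the reads in gene rows in shCDCA8 libraries, against 0.288% and 0.285% in shCTRL libraries.

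**Figure D1:**
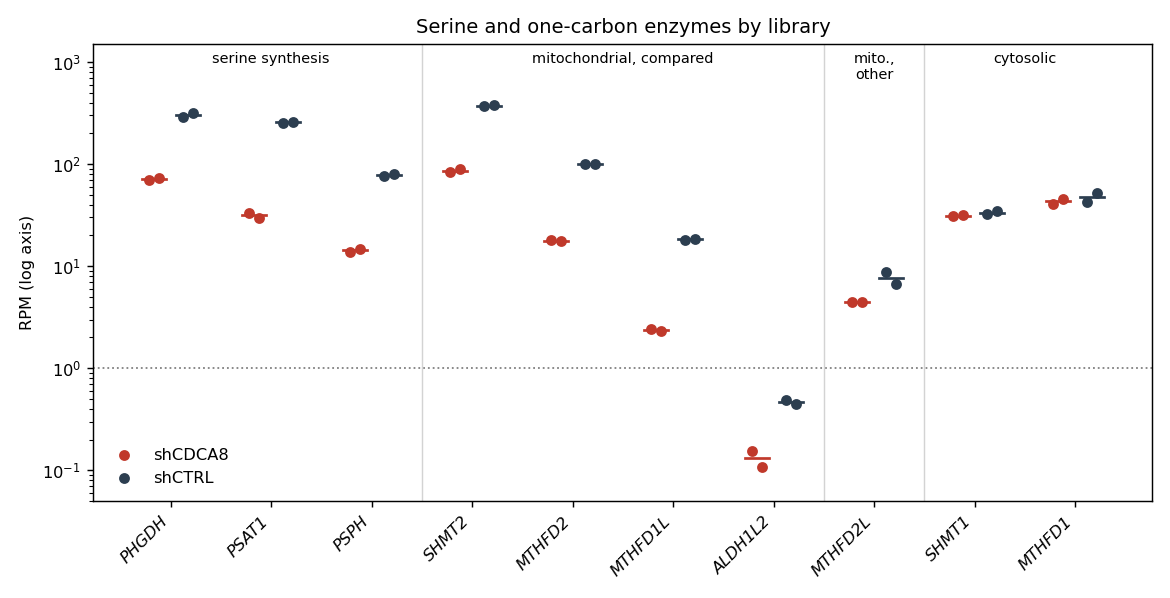
RPM of each of the 10 enzymes in each library (log axis), with shCDCA8 to the left of shCTRL 1 point per library, a line at each group's mean and a dotted line at the filter of 1 RPM. The serine synthesis enzymes and SHMT2, MTHFD2 and MTHFD1L lie apart between the groups, while SHMT1 and MTHFD1 lie close together, and ALDH1L2 stays under 1 RPM in all 4 libraries.

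All 3 serine synthesis enzymes fell. PHGDH, the dehydrogenase that commits 3-phosphoglycerate to serine, measured 70.1 and 73.5 RPM in shCDCA8 cells, against 287 and 314 RPM in shCTRL cells. PSAT1, the aminotransferase of the next step, measured 33.3 and 29.9 RPM in shCDCA8 cells, against 251 and 260 RPM in shCTRL cells. PSPH, the phosphatase that releases serine, measured 13.9 and 14.8 RPM in shCDCA8 cells, against 76.2 and 79.7 RPM in shCTRL cells. For each gene both shCDCA8 libraries were low and close to each other, and the groups did not overlap. The log2 fold change was -2.05 ± 0.09 for PHGDH (SE, limma adjusted p = 1.77e-08), which left 23.9% of the shCTRL mean. PSAT1 had the largest fall of the 9 enzymes, at -2.98 ± 0.10 (adjusted p = 2.25e-09), which left 12.4% of the shCTRL mean and ranked 20 from the bottom among all kept genes. PSPH lay between them at -2.36 ± 0.11 (adjusted p = 1.69e-08), with 18.4% of the shCTRL mean.

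The 3 enzymes of the serine route did not fall in proportion. Within a library, the ratio of PHGDH to PSAT1 RPM was 2.10 and 2.45 in shCDCA8 cells, against 1.14 and 1.21 in shCTRL cells. The ratio of PSAT1 to PSPH was 2.41 and 2.02 in shCDCA8 cells, against 3.29 and 3.26 in shCTRL cells. These ratios of reads, not corrected for transcript length, cancel any scaling of a library. Their log2 differences between groups were 0.95 and -0.57, each larger than the pooled SD of the 4 libraries (0.12 and 0.13), and the groups did not overlap. With 2 libraries a group, an exact two-sided permutation test of such a ratio cannot give a p below 0.333, so none was used.

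Promoter letters are shown for the fallen genes PHGDH and PSAT1 because both belong to the route that lost most of its reads. The 250 bases before the start are from RefSeq on GRCh38.p14, at chr1:119711684-119711933 (plus strand) for PHGDH and chr9:78296875-78297124 (plus strand) for PSAT1. Capitals mark matches to any of 3 motifs in the bases shown. The search covered both strands from 250 bases before to 50 after a start, so a match after the start is not shown. The motifs were TGATGNAA, the core of the element bound by C/EBP and ATF factors, CACGTG, the E-box bound by MYC family factors, and TGANNNNGC. The last is a loose pattern for the core of the antioxidant response element, so a match need not be that core. It can overlap with TGATGNAA.
PHGDH: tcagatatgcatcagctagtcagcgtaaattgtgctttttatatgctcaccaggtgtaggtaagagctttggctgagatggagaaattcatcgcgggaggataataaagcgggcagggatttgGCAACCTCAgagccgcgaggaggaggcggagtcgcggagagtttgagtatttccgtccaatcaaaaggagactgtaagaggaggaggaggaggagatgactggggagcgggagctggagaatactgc
PSAT1: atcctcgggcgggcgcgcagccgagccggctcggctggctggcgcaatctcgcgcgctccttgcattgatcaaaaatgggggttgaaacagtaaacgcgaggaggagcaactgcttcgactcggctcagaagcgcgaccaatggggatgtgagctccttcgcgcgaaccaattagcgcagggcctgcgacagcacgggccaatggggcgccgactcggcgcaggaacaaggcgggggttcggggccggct
PHGDH held 1 TGANNNNGC match, on the minus strand at position -127 counted from the start, and PSAT1 held none of the 3. Of the 10 enzymes 7 had a promoter in the table, with 11 listed starts, while PSPH, SHMT2 and ALDH1L2 had none. TGANNNNGC occurred in 41.8% of all 35116 promoter windows and in 6 of the 7 enzyme genes (47.1% of all genes), CACGTG in 7.26% of windows and in 2 of the 7 (8.77% of genes), and TGATGNAA in 3.62% of windows and in 1 of the 7 (4.46% of genes).

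**Figure D2:**
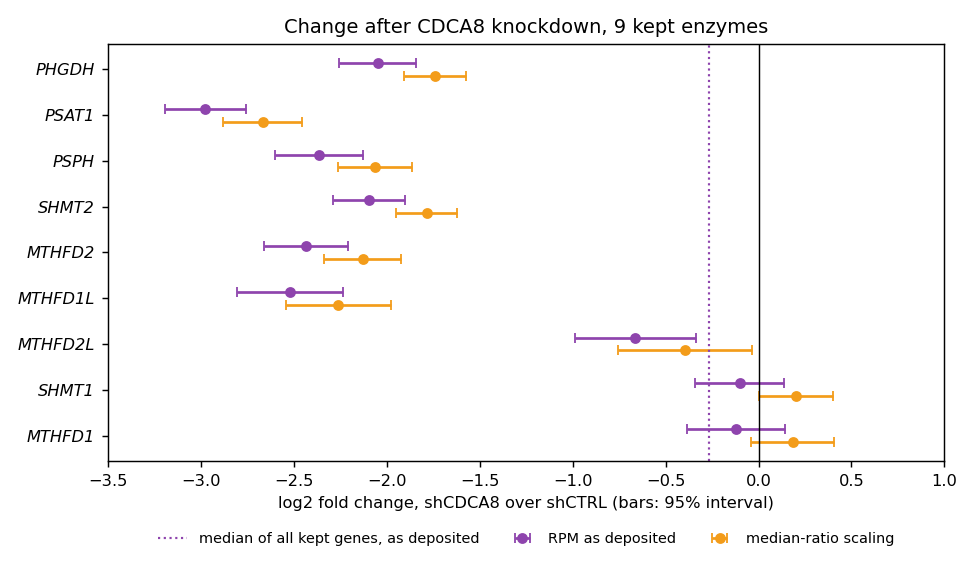
Log2 fold change of the 9 tested enzymes on the log2(RPM + 1) scale, shCDCA8 over shCTRL, with 95% intervals, for values as deposited and after median-ratio scaling. The 6 enzymes of serine synthesis and mitochondrial folate metabolism lie below -2 as deposited, the dotted line is the median of all kept genes, and SHMT1 and MTHFD1 change from just below 0 to just above 0 with the scaling.

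The mitochondrial folate enzymes SHMT2, MTHFD2 and MTHFD1L fell about as far as the serine enzymes. SHMT2, which takes the carbon unit from serine inside mitochondria, measured 83.9 and 88.8 RPM in shCDCA8 cells, against 368 and 376 RPM in shCTRL cells. MTHFD2, the dehydrogenase and cyclohydrolase of the next steps, measured 18.0 and 17.4 RPM in shCDCA8 cells, against 101 and 99.7 RPM in shCTRL cells. MTHFD1L, which releases the unit as formate, measured 2.43 and 2.30 RPM in shCDCA8 cells, against 18.0 and 18.5 RPM in shCTRL cells. No shCDCA8 library came near a shCTRL library for any of the 3, and the replicates of each group were close. SHMT2 had a log2 fold change of -2.09 ± 0.09 (SE, limma adjusted p = 9.82e-09) and kept 23.2% of its shCTRL mean. MTHFD2 had -2.43 ± 0.10 (adjusted p = 9.47e-09) and kept 17.7%. MTHFD1L had -2.52 ± 0.13 (adjusted p = 4.00e-08) and kept 12.9%, with 127 reads in each shCDCA8 library, against 961 and 866 reads in the shCTRL libraries.

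ALDH1L2, the mitochondrial enzyme that oxidises the carbon unit to carbon dioxide, was barely detected. It had 8 and 6 reads in shCDCA8 libraries, against 26 and 21 reads in shCTRL libraries, or 0.153 and 0.109 RPM in shCDCA8 libraries, against 0.488 and 0.450 RPM in shCTRL libraries. The groups did not overlap, but all 4 libraries were below the filter. With filterByExpr, edgeR's own filter, the quasi-likelihood test on the recovered whole reads gave a log2 fold change of -1.48 (adjusted p = 0.0194), in a fit where 30.5% of genes fell. On so few reads the size of that difference is poorly determined.

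MTHFD2L, a mitochondrial paralogue of MTHFD2 with the same activities, behaved differently in size. It measured 4.44 and 4.49 RPM in shCDCA8 cells, against 8.74 and 6.68 RPM in shCTRL cells. The shCTRL libraries differed more from each other than the shCDCA8 libraries did, and the groups did not overlap. MTHFD2L fell by 0.66 ± 0.15 on the log2 scale (SE, limma adjusted p = 0.00191), but after median-ratio scaling the log2 fold change of -0.40 did not pass (adjusted p = 0.0511). Among all kept genes 28.7% had a lower log2 fold change. The ratio of MTHFD2 to MTHFD2L RPM was 4.06 and 3.89 in shCDCA8 cells, against 11.5 and 14.9 in shCTRL cells, a log2 difference of -1.72 with a pooled SD of 0.19.

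Promoter letters are given for MTHFD2, at chr2:74198365-74198614 (plus strand), to set the mitochondrial gene beside its cytosolic counterparts further on. For MTHFD1L the letters are the 30 bases at chr6:150866346-150866375 (plus strand). These 30 bases hold the only TGATGNAA match among the 7 enzyme genes with a listed promoter. Both stretches are from RefSeq on GRCh38.p14, with motif matches in capitals.
MTHFD2: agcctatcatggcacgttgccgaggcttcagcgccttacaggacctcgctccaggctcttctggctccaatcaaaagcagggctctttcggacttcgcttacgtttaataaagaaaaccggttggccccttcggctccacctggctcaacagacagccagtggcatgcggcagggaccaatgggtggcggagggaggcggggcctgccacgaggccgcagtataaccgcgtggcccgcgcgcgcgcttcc
MTHFD1L window: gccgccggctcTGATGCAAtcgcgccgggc
In MTHFD2 no match fell in the bases shown. A single TGANNNNGC match began at +7, after the start. The MTHFD1L match TGATGCAA is 1 site seen from 3 of its 4 listed starts, at +25, -90 and -129. MTHFD1L also held a CACGTG in those 3 windows. A match in these windows describes letters only and says nothing of binding in these cells.

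The cytosolic enzymes did not pass the test in either direction. SHMT1, the cytosolic counterpart of SHMT2, measured 30.6 and 31.5 RPM in shCDCA8 cells, against 32.3 and 34.6 RPM in shCTRL cells. MTHFD1, a single cytosolic protein with the dehydrogenase, cyclohydrolase and formate ligase activities, measured 40.8 and 45.4 RPM in shCDCA8 cells, against 42.6 and 51.8 RPM in shCTRL cells. The SHMT1 groups lay next to each other without overlap, and the MTHFD1 groups overlapped. For SHMT1 the log2 fold change was -0.10 with a 95% interval from -0.34 to 0.14 (limma adjusted p = 0.425), and for MTHFD1 it was -0.12 with an interval from -0.39 to 0.14 (adjusted p = 0.391). After median-ratio scaling both signs turned, to 0.20 for SHMT1 (adjusted p = 0.0705) and 0.18 for MTHFD1 (adjusted p = 0.126). The intervals then ran from 0.000759 to 0.402 for SHMT1, just above 0, and from -0.0393 to 0.407 for MTHFD1. Because the signs depended on the scaling and neither gene passed under either scaling, no direction is given for them. SHMT1 passed the test as higher under 3 of 18 alternative settings, and MTHFD1 under 2.

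Promoter letters of the cytosolic pair follow for comparison, from RefSeq on GRCh38.p14, at chr17:18363551-18363800 (minus strand) for SHMT1 and chr14:64388103-64388352 (plus strand) for MTHFD1, with motif matches in capitals.
SHMT1: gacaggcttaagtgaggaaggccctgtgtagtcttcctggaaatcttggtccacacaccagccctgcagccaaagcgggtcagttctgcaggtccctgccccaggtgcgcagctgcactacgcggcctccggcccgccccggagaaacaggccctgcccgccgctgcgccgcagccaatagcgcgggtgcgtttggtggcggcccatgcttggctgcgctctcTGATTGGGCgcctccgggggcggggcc
MTHFD1: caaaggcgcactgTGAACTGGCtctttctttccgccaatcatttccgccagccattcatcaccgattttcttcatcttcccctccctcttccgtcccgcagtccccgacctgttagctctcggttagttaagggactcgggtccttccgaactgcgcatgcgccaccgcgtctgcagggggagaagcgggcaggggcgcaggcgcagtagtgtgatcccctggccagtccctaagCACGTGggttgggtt
SHMT1 held a TGANNNNGC match at -27, and MTHFD1 held one at -237 and a CACGTG at -15. TGATGNAA was found in neither, nor in PHGDH, PSAT1 or MTHFD2.

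The balance between compartments moved toward the cytosolic enzymes in both shCDCA8 libraries. The mean log2(RPM + 1) of the 4 mitochondrial enzymes minus that of the 2 cytosolic enzymes was -2.02 and -2.14 in shCDCA8 cells, against -0.25 and -0.43 in shCTRL cells. The difference between groups was -1.74 on the log2 scale with a pooled SD of 0.11, and it was -2.24 when ALDH1L2 was left out of the mean, a choice made after seeing the data. The mean of the mitochondrial enzymes changed by -1.86 and that of the cytosolic enzymes by -0.11.

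Pairs of enzymes with the same reaction in both compartments differed in the same direction. The ratio of SHMT2 to SHMT1 RPM was 2.74 and 2.82 in shCDCA8 cells, against 11.4 and 10.9 in shCTRL cells. The ratio of MTHFD2 to MTHFD1 was 0.442 and 0.384 in shCDCA8 cells, against 2.36 and 1.93 in shCTRL cells. The ratio of MTHFD1L to MTHFD1 was 0.0595 and 0.0506 in shCDCA8 cells, against 0.423 and 0.358 in shCTRL cells. In all 3 pairs both shCDCA8 libraries were lower than both shCTRL libraries. The log2 differences were -2.002 (pooled SD 0.04), -2.37 (0.18) and -2.83 (0.17). Because both genes of a pair come from the same library, these differences do not depend on a scaling factor. They compare changes, not the levels of the paired enzymes, since reads were not corrected for transcript length.

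**Figure D3:**
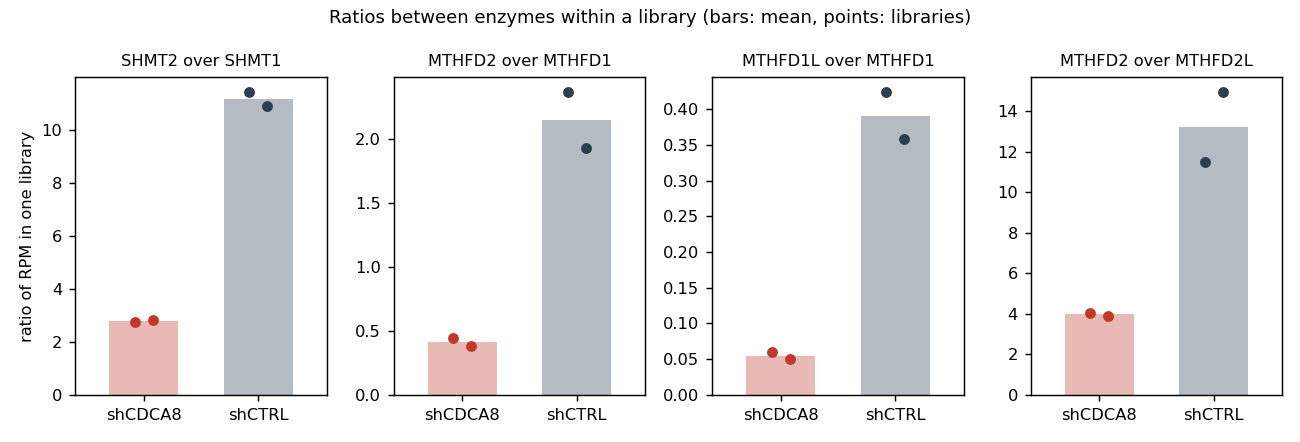
Ratio of RPM between paired enzymes within a library, with shCDCA8 to the left of shCTRL, bars for the mean of 2 libraries points for the libraries and an axis of its own for each pair. For SHMT2 over SHMT1 the shCDCA8 points lie at 2.74 and 2.82, against 11.4 and 10.9 for shCTRL.

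Some reads may be shared with other loci. By symbol, RefSeq lists 4 pseudogenes of PSAT1, 7 of MTHFD2 and 1 each of PSPH, SHMT1 and MTHFD1, and none of them has a row, so reads that could match them are an uncertainty of those values. Overlapping genes with a row exist for SHMT2 (NDUFA4L2), MTHFD2 (SLC4A5), SHMT1 (SMCR8) and MTHFD1 (ZBTB25), and whether the counting used strand is not stated in the labels. SMCR8 measured 46.6 and 50.4 RPM in shCDCA8 cells, against 37.9 and 40.8 RPM in shCTRL cells, so the neighbour of SHMT1 differed in the other direction. SLC4A5, over MTHFD2, measured 0.823 and 1.07 RPM in shCDCA8 cells, against 3.94 and 4.05 RPM in shCTRL cells. NDUFA4L2, over SHMT2, measured 10.4 and 6.87 RPM in shCDCA8 cells, against 16.0 and 22.8 RPM in shCTRL cells. Both of these neighbours fell, like the enzyme they overlap, and the part of shared reads was not tested. ZBTB25, over MTHFD1, measured 4.04 and 3.55 RPM in shCDCA8 cells, against 5.20 and 4.62 RPM in shCTRL cells.

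Around the 10 enzymes, several amino acid carriers fell steeply, and SFXN1 and SERINC1 rose. Of 13 kept genes for serine and glycine transport and use, 8 fell, 2 rose and 3 did not pass. Of all kept genes 47.6% fell and 18.8% rose. The median log2 fold change of the list was -0.46 beside -0.27 for all kept genes. SLC1A5, a carrier of glutamine and other neutral amino acids, measured 16.0 and 18.9 RPM in shCDCA8 cells, against 222 and 237 RPM in shCTRL cells (log2 fold change -3.65, limma adjusted p = 1.23e-09). SLC1A4, which carries alanine and serine, had a log2 fold change of -3.66, with 0.536 and 0.633 RPM in shCDCA8 cells, against 18.1 and 19.9 RPM in shCTRL cells, and passed the filter only through the shCTRL libraries. SLC6A9, a glycine carrier, had a log2 fold change of -3.79, and SFXN2, a relative of the mitochondrial serine carrier SFXN1, one of -1.97. The 2 that rose, SFXN1 and SERINC1, were named after their values were seen and had log2 fold changes of 0.31 and 0.75. SFXN1 measured 66.2 and 66.1 RPM in shCDCA8 cells, against 51.9 and 54.8 RPM in shCTRL cells. After median-ratio scaling 6 of the 13 fell and 5 rose, against 33.6% and 33.2% of kept genes.

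Of the 7 glycolytic enzymes on either side of the serine branch 3 fell and 4 did not pass, with a median of -0.08. That share is close to the 47.6% of all kept genes that fell. GAPDH and PGK1, whose steps lead to 3-phosphoglycerate, were among those that fell, and PGAM1, PGAM2, ENO1 and PKM, which act after it, did not pass. PGK1, which makes 3-phosphoglycerate, measured 193 and 167 RPM in shCDCA8 cells, against 303 and 377 RPM in shCTRL cells (log2 fold change -0.91, limma adjusted p = 2.89e-05). ENO2, which acts after the branch and passed the filter only with the shCTRL libraries, fell by 0.88 on the log2 scale, and GAPDH fell by 0.32. After median-ratio scaling GAPDH no longer passed and 2 of the 7 fell. The 4 that then rose were PGAM1, PGAM2, ENO1 and PKM, and the median of the list was 0.23, the other sign. Of all kept genes 33.6% fell and 33.2% rose under that scaling.

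Of 6 kept genes for folate uptake and retention 3 fell and 3 did not pass (median -0.52), a share close to the 47.6% of all kept genes that fell. The folate carriers SLC46A1 (-0.94) and SLC19A1 (-0.81) and FPGS (-0.86), which adds the glutamate tail that keeps folate in the cell, fell on the log2 scale. SLC25A32, the carrier that brings folate into mitochondria, measured 8.44 and 7.72 RPM in shCDCA8 cells, against 10.2 and 9.12 RPM in shCTRL cells, and did not pass (limma adjusted p = 0.149). FOLH1, which trims polyglutamated folate outside the cell and is a prostate marker, measured 235 and 178 RPM in shCDCA8 cells, against 194 and 197 RPM in shCTRL cells, with overlapping groups, and was called higher only after median-ratio scaling (adjusted p = 0.0368). Of 8 kept genes for other folate interconversion and use 4 fell, 2 rose and 2 did not pass (median -0.24, and 0.06 after median-ratio scaling). Thymidylate synthase TYMS (-1.34), the mitochondrial formyltransferase MTFMT (-1.22) and the purine enzyme GART (-0.58) fell on the log2 scale.

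Glycine breakdown had few detected genes. Of 3 kept genes 1 fell (GCSH, -0.43), 1 rose and 1 did not pass, while 47.6% of all kept genes fell and 18.8% rose. GLDC, AMT and TDH were below the filter. DLD, a subunit that glycine breakdown shares with the large mitochondrial dehydrogenase complexes, measured 57.9 and 50.7 RPM in shCDCA8 cells, against 25.4 and 19.2 RPM in shCTRL cells (log2 fold change 1.26, limma adjusted p = 9.58e-06). After median-ratio scaling GCSH did not pass, so 0 of the 3 fell, against 33.6% of kept genes. DLD then rose, as did GCAT, the 1 that had not passed as deposited, against 33.2% of kept genes. Of 8 listed genes of choline and sarcosine metabolism 3 were kept. CHDH, which oxidises choline in mitochondria, and GNMT, a cytosolic enzyme that makes sarcosine from glycine, fell on the log2 scale (-1.25 and -0.80). DMGDH, which takes a carbon unit from dimethylglycine, had 0.230 and 0.181 RPM in shCDCA8 cells, against 1.58 and 1.18 RPM in shCTRL cells. It passed the filter only through the shCTRL libraries, so its call (-0.97) is given as a value only. BHMT, BHMT2, SARDH and PIPOX were below the filter.

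In the methionine cycle and transsulfuration, which receive carbon units and serine, 8 of 11 genes fell, 1 rose and 2 did not pass (median -0.49). Of all kept genes 47.6% fell and 18.8% rose. CTH, the last enzyme of cysteine synthesis, measured 4.19 and 4.01 RPM in shCDCA8 cells, against 20.1 and 21.6 RPM in shCTRL cells (log2 fold change -2.10, limma adjusted p = 1.28e-07). MAT2A (-1.13), an S-adenosylmethionine synthase, and its regulatory subunit MAT2B (-1.39) also fell on the log2 scale. MAT1A (-1.38), another synthase gene, was among the 8 but passed the filter only through the shCTRL libraries, with 0.268 and 0.253 RPM in shCDCA8 cells, against 2.12 and 2.44 RPM in shCTRL cells. CBS, which joins serine to homocysteine and is named outside the rule for genes, measured 118 and 141 RPM in shCDCA8 cells, against 168 and 189 RPM in shCTRL cells, and its call was lost after median-ratio scaling (adjusted p = 0.154). AHCYL2 was the 1 that rose, named after its value was seen, at 0.35. After median-ratio scaling 5 of the 11 fell and 1 rose, against 33.6% and 33.2% of kept genes.

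**Figure D4:**
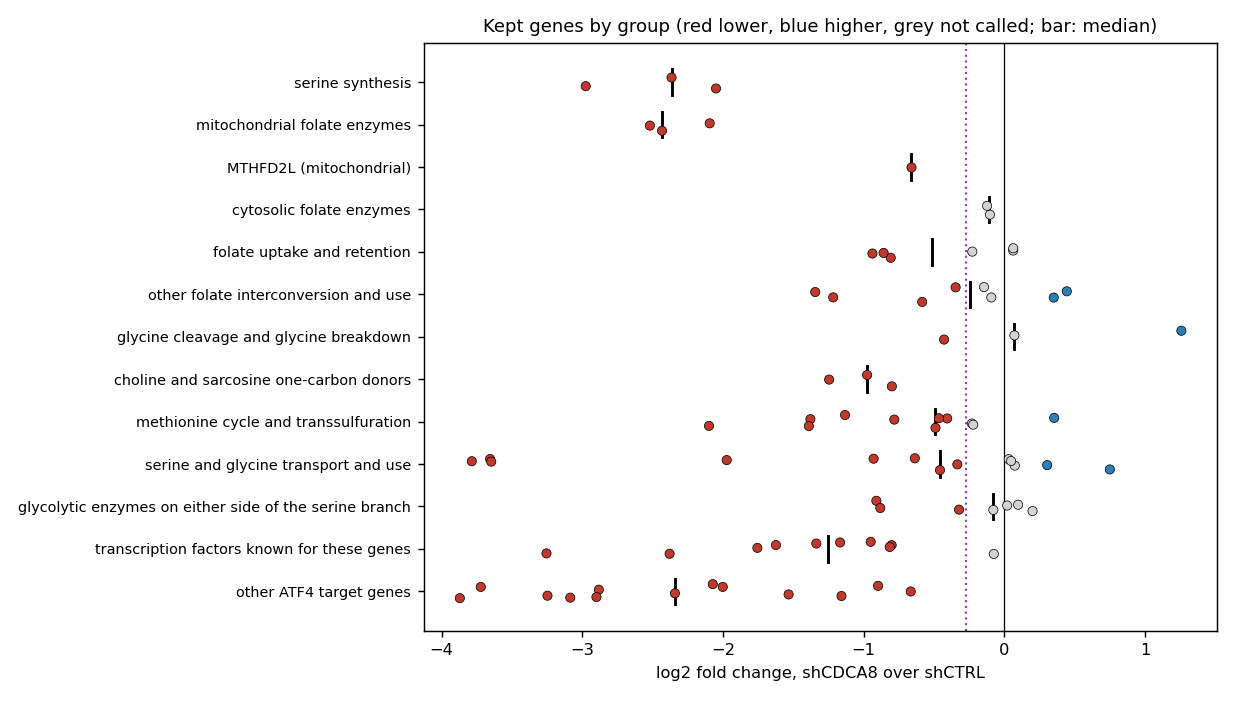
Log2 fold change of each kept gene by group of genes, shCDCA8 over shCTRL, with red points for called lower, blue for called higher, grey for not called, a bar at the median of the group and a dotted line at that of all kept genes. Serine synthesis, mitochondrial folate enzymes and other ATF4 target genes have medians of -2.36, -2.43 and -2.34, and the glycolytic enzymes have a median of -0.08.

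Most transcription factors known for these genes were lower too. Of 10 listed factors and regulators 9 fell and 1 did not pass, both as deposited (median -1.25) and after median-ratio scaling. Of all kept genes 47.6% fell as deposited and 33.6% after that scaling. ATF4 measured 131 and 125 RPM in shCDCA8 cells, against 662 and 677 RPM in shCTRL cells (log2 fold change -2.38 ± 0.09, SE, limma adjusted p = 3.21e-09). NUPR1, a stress-induced cofactor, fell to 19.6 and 17.7 RPM in shCDCA8 cells, against 182 and 190 RPM in shCTRL cells. CEBPB, which can pair with ATF4, had a log2 fold change of -1.76, and MYC, a known activator of serine and folate genes, one of -1.34. NFE2L2, another known activator, measured 12.2 and 10.6 RPM in shCDCA8 cells, against 12.7 and 11.4 RPM in shCTRL cells, and did not pass (adjusted p = 0.639). These are transcript levels, while ATF4 and NFE2L2 are regulated largely by translation and protein stability, which were not measured.

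All 13 kept genes on a list of other ATF4 targets fell under both scalings. The shares over all kept genes were 47.6% as deposited and 33.6% after median-ratio scaling. As deposited, the median log2 fold change of the list was -2.34, beside -0.27 for all kept genes. That list was written with earlier results of these data known and is no independent evidence of direction or of size. PCK2, the mitochondrial phosphoenolpyruvate carboxykinase, had a log2 fold change of -3.87, and CHAC1, which degrades glutathione, one of -3.72. STC2, a secreted glycoprotein, and the asparagine synthetase ASNS had -2.90 and -2.88 (limma adjusted p up to 5.01e-09 for the 4 genes). FGF21 was below the filter. PHGDH, PSAT1, PSPH, SHMT2, MTHFD2 and MTHFD1L lay between -2.98 and -2.05, within the span of these 13 genes. A shared cause was not tested.

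**Figure D5:**
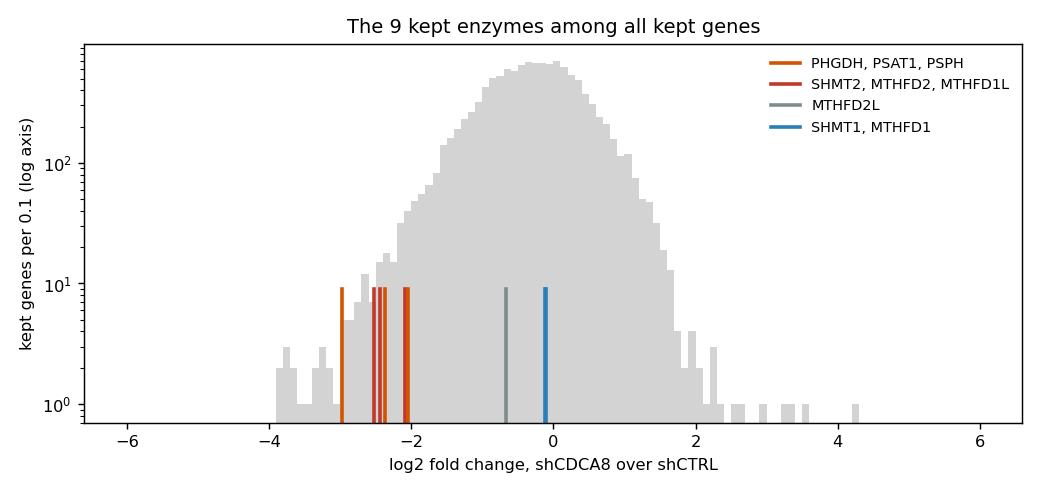
Histogram of the log2 fold changes of the 11833 kept genes (log count axis), shCDCA8 over shCTRL, with the 9 tested enzymes marked. The median of all kept genes is -0.27, and from 0.161% (PSAT1) to 1.30% (PHGDH) of kept genes lie below the 6 enzymes that fell furthest.

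Profiles most like those of the enzymes were sought among 6520 genes (mean RPM of 10 or more), by the Euclidean distance between log2(RPM + 1) values centred over the 4 libraries. Nearest to the mean of the serine synthesis enzymes were STRADB (distance 0.0494), ARG2 (0.0898), ATF4 (0.106), AADAT (0.123) and LPAR3 (0.127). STRADB measured 4.38 and 4.18 RPM in shCDCA8 cells, against 27.8 and 28.8 RPM in shCTRL cells. Nearest to the mean of the mitochondrial folate enzymes were RNF157 (0.0320), RDH11 (0.0416), NABP2 (0.0423), TNFRSF19 (0.0489) and PFN2 (0.0615). That profile included ALDH1L2, whose difference is flattened by the pseudocount. Its group difference was -1.86, smaller in size than those of SHMT2, MTHFD2 and MTHFD1L. RNF157 measured 5.88 and 5.97 RPM in shCDCA8 cells, against 23.7 and 24.1 RPM in shCTRL cells. With 4 libraries in 2 groups, such a distance describes how alike the group difference and the replicate spread are, and no more.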

How the data were processed

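Values are RPM as deposited by the authors, per the file headers, and the sources do not state the denominator. TopHat, cutadapt, HTSeq and edgeR, with the build hg19, appear in the submitters' processing notes. Every RPM was a whole multiple of its library's step (100% within 0.01 read), so whole reads and divisors (46709612 to 55289855 reads) were recovered.

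Genes that reached 1 RPM in 2 or more libraries were tested as log2(RPM + 1) with limma 3.58.1 in R 4.3.3 (trend, two-sided, Benjamini-Hochberg over 11833 genes). Fold changes on this scale understate those of low genes. The fit was tested on simulated data. On recovered reads, edgeR 4.0.16 called 7807 genes, and DESeq2 1.42.0 was also run. Counts of replicates differed beyond sampling noise: chi-square over its degrees of freedom was 10.0 for shCDCA8 and 8.08 for shCTRL.

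The members and lists were chosen with earlier results of these data known. Named genes are the 10 enzymes, CDCA8, up to 4 called genes with the smallest p per list, the highest and lowest cell type markers and the 5 nearest profiles; some genes under this rule are not reported here. Older symbols were matched through gene name tables. Promoters came from RefSeq by symbol. Small RNA libraries, with shEZH2, were not used here.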

Additional observations from a re-analysis of the deposited data

How the results depend on the processing

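PHGDH, PSAT1, PSPH, SHMT2, MTHFD2, MTHFD1L and CDCA8 kept direction and call under all 18 alternatives, with a highest adjusted p of 0.000241 (CDCA8). The log2 fold changes ran from -3.05 to -2.60 for PSAT1, from -2.12 to -1.67 for PHGDH and from -2.83 to -1.66 for MTHFD1L. MTHFD2L lost its call under median-ratio scaling (-0.40, or -0.34 over all rows), scaling to gene rows (-0.39), DESeq2 (-0.48) and edgeR with filterByExpr (-0.44). SHMT1 turned to 0.20 under median-ratio scaling, with or without the replicate block, 0.27 over all rows, 0.21 with gene rows, 0.16 with quantile scaling, 0.20 with edgeR, 0.21 with DESeq2 and 0.25 with filterByExpr. MTHFD1 turned to 0.18 under median-ratio scaling, with or without the block, 0.25 over all rows, 0.20 with gene rows, 0.13 with quantile scaling, 0.18 with edgeR, 0.19 with DESeq2 and 0.23 with filterByExpr. When 1 library at a time was left out, MTHFD1 ranged from -0.26 to 0.016, its value without shCTRL replicate 2. The cause of these turns was not tested.

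As deposited 5628 genes were called lower, against 3575 with DESeq2 and 3624 with median-ratio scaling over all rows. Called higher were 2224, against 3931 with median-ratio scaling, 4346 over all rows, 3985 with gene rows, 3961 with quantile scaling, 3851 with edgeR, 3639 with DESeq2, 4327 with filterByExpr and 4444 with the replicate block and median-ratio scaling together. Of the enzymes, 0 were called higher as deposited, 2 over all rows, 2 with block and median-ratio scaling, and 1 with filterByExpr. The mitochondrial minus cytosolic difference was -1.97 at a pseudocount of 0.25, -1.40 at 5 and -2.24 without ALDH1L2. The log2 difference of SHMT2 over SHMT1 was -1.96 with quantile scaling.

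Replicate numbers are not stated to pair libraries (correlation of same-numbered deviations 0.312). The replicate block alone gave 6189 genes lower and 2712 higher, with 7 enzymes lower and 0 higher. The median of other folate genes changed sign in 7, of glycine genes in 2 and of glycolytic genes in 8 of 18 alternatives. filterByExpr, the scaling over all rows and leaving out ALDH1L2 were chosen after seeing the data. The calls of GART, GCSH, ENO2, GAPDH, SFXN1, AHCYL2, XPOT and CBS were each lost under at least 1 alternative. Depth limits ALDH1L2 (6 to 26 reads) most.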
